A study of Homo sapiens with 16 samples.

Results

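The genes of the integrated stress response were followed here through peak lists from RNA immunoprecipitation sequencing (RIP-seq) of PABPC1, a protein that coats the poly(A) tail of mRNAs in the cytoplasm. The 8 genes were ATF4, DDIT3, ATF3, PPP1R15A, TRIB3, ASNS, SESN2 and DDIT4. A peak is a stretch of the genome in which the authors' caller found enriched reads, and a peak counted for a gene when it lay on the gene's strand and shared at least 1 bp with the gene's span in build hg19. By this rule 111 of the 175749 peaks of the 8 deposited lists belonged to the 8 genes. Joined wherever they overlapped on 1 strand, they formed 23 of the 36802 regions of the series.

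The cells were H1299, an established human lung carcinoma line, and they stably expressed Myc-tagged PABPC1 that was either wild type (WT) or carried the K512R change, in which a lysine is replaced by arginine. They received 500 µM sodium arsenite (AS) or none, and RNA was recovered with an anti-Myc antibody (IP) or taken before recovery (input). No source used here says how the transgene was driven, whether a line was 1 clone or whether the cells kept their own PABPC1. Of 16 samples, 8 had a list used here, and these form 4 pairs of replicates, A1 and A2 to D1 and D2. Pair A is untreated WT by the sample record, which adds IP, and by the name of the list. For the other pairs record and name differ. Pair B is recorded as input of untreated WT and named WT with AS. For pair C the record says IP of WT with AS and the name untreated K512R. Pair D is recorded as input of WT with AS and named K512R with AS. The conflict touches 6 of the 8 lists and was not settled, so every comparison below carries both readings. Separate cultures are not stated for the replicates, so their spread may be technical. The lists give a score per peak and no counts, so depth is unknown, and the lack of a peak does not separate less bound RNA from less RNA in the cell or from fewer reads.

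In the integrated stress response, kinases that sense stress phosphorylate the translation factor eIF2α. General translation then falls, while the mRNA of ATF4, which carries upstream open reading frames, is translated better. ATF4 is a transcription factor that turns on genes for amino acid supply, redox balance and growth control, and PPP1R15A later leads a phosphatase back to eIF2α. Arsenite is a classic trigger of this response and of stress granules, the cytoplasmic bodies in which PABPC1 gathers with stalled mRNAs.

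All 8 genes had a peak in at least 1 list, and 5 of them had one in all 8 lists. These were ATF4, ATF3, TRIB3, ASNS and SESN2, although no region of ASNS was itself shared by all lists. DDIT3 and PPP1R15A had a peak in 4 lists each and DDIT4 in 1 list. At the level of regions, 8 of 23 (34.8%) had a peak in every list, beside 29.5% of all regions of the series. The 8 were the ATF4 region, all 3 of ATF3, the first 3 of TRIB3 and the first of SESN2. Member regions ranged from 100 to 1776 bp with a median of 293 bp, against a median of 180 bp over the series. Of the 22 member regions found in 2 or more lists, 18 had the same start and end in every list that held them. No such share was computed over the series. How the caller set borders is not stated, so the count is no measure of agreement between replicates.

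**Figure D1:**
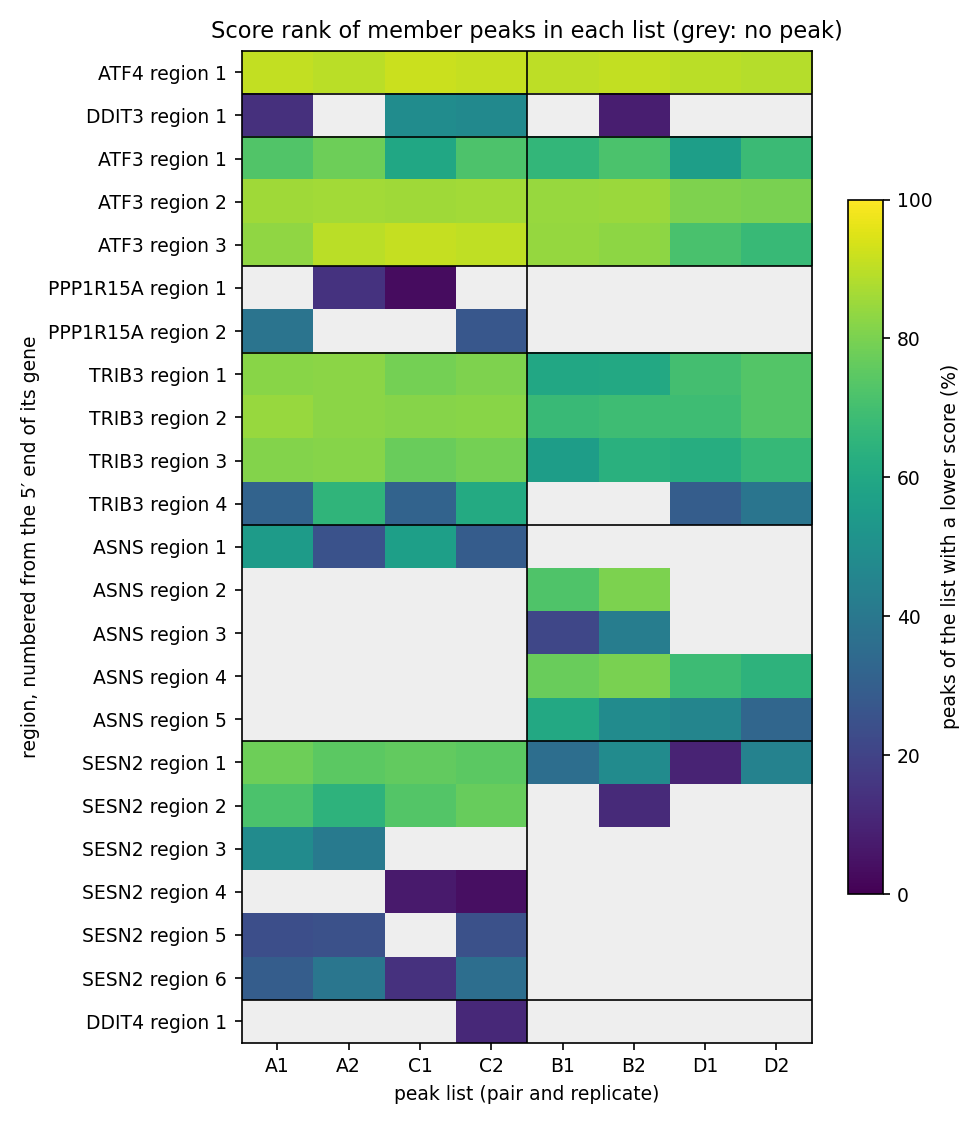
Each row is 1 of the 23 regions, numbered from the 5′ end of its gene, and each column 1 peak list, with A and C left of the vertical line and B and D right of it. Colour gives the percentage of the list's peaks with a lower score, and grey marks no peak. ATF4, ATF3 and the first 3 regions of TRIB3 are coloured throughout, while regions 1, 4 and 5 of ASNS and region 6 of SESN2 are coloured on 1 side of the line alone, in each of its 4 lists.

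The ATF4 region was the same in all lists. It lay on chromosome 22 from 39917359 to 39918685 (plus strand, 1327 bp), beginning 790 bp inside the gene's span and ending 6 bp before its 3′ end. Its score was 3100 in each of the 8 lists, and in each list 89.0% to 91.8% of peaks scored lower. A score of 3100 or more was reached by 8.17% to 11.0% of the peaks in each list, so the region sat among the tied top peaks and the score cannot order the lists. The first 790 bp of the span held no peak in any list. The positions of the upstream open reading frames were not compared with the region, so which of them it covers is not known.

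DDIT3 encodes CHOP, a transcription factor that promotes cell death when stress persists. Its only region was 100 bp long, at the very 5′ end of the span (chromosome 12, 57914201 to 57914300, minus strand). Scores are the authors', on a scale that is not stated, and are read only against other peaks of the same list. DDIT3 was scored 24.68 in A1, 19.01 in B2, 129.26 in C1 and 126.35 in C2, and had no peak in A2, B1, D1 and D2. The replicates thus disagreed in A and in B and agreed in C and in D. In the RefSeq gene table, which is for build GRCh38.p14, the genes LOC128125814 and MIR616 lie inside DDIT3 and MARS1 overlaps it. Their strands and their places along DDIT3 were not compared with this region. The lists themselves do not name the gene the reads came from.

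ATF3, a transcription factor of the same family as ATF4 that is induced by many stresses, had 3 regions in every list. On chromosome 1 (plus strand) they spanned 212781970 to 212782272, 212788360 to 212788603 and 212792388 to 212794119. The first began 43294 bp inside the span of 55444 bp, so the long 5′ part of the gene held no peak in any list. The last, 1732 bp wide, ended at the last base of the span. It outscored 83.4% and 89.8% of peaks in A1 and A2, 84.2% and 83.0% in B1 and B2, 91.3% and 90.4% in C1 and C2, and 71.2% and 67.4% in D1 and D2. The middle region outscored 79.7% to 86.2% of peaks in the 8 lists. Ranks from lists of different length describe the place of a peak in its own list and show no change between lists. The covered length of ATF3, meaning the widths of its peaks in a list added up, ran from 2234 to 2279 bp, and the groups of lists overlapped in both directions tested below.

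PPP1R15A encodes GADD34, the subunit that brings protein phosphatase to eIF2α and so ends the response. It had 2 regions on the plus strand of chromosome 19, and no list held both. The 5′ region (49375649 to 49375908, 260 bp) began at the first base of the span and was scored 26.87 in A2 and 15.31 in C1. The 3′ region (49378709 to 49379299, 591 bp) ended 20 bp before the 3′ end and was scored 80.9 in A1 and 47.2 in C2. A and C thus had a peak in each of their 4 lists, but at a different end of the gene in the 2 replicates of a pair. B and D had none in any of their 4 lists. All of these peaks were low in their lists, above 3.42% to 38.6% of the peaks.

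TRIB3 encodes a pseudokinase that is induced by ATF4 and CHOP and restrains ATF4. Its 4 regions (chromosome 20, plus strand) spanned 361273 to 361813 (541 bp, from 35 bp before the span), 368655 to 368945, 371931 to 372223 and 376842 to 378203 (1362 bp, up to the last base of the span). The first 3 had a peak with identical borders in every list. The first region was scored 1165.4 and 1394.18 in A1 and A2, 274.57 and 255.19 in B1 and B2, 781.96 and 943.68 in C1 and C2, and 517.59 and 691.78 in D1 and D2. Over these 3 regions the peaks outscored 81.5% to 84.4% of peaks in A, 77.2% to 82.4% in C, 55.5% to 69.0% in B and 62.3% to 73.4% in D. The 3′ region separated pair B from the others. It was scored 58.14 and 394.1 in A1 and A2, 56.99 and 262.5 in C1 and C2, and 53.84 and 92.55 in D1 and D2, and had no peak in B1 or B2. The covered length of TRIB3 was 2487 bp in each list of A, C and D and 1125 bp in each of B.

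**Figure D2:**
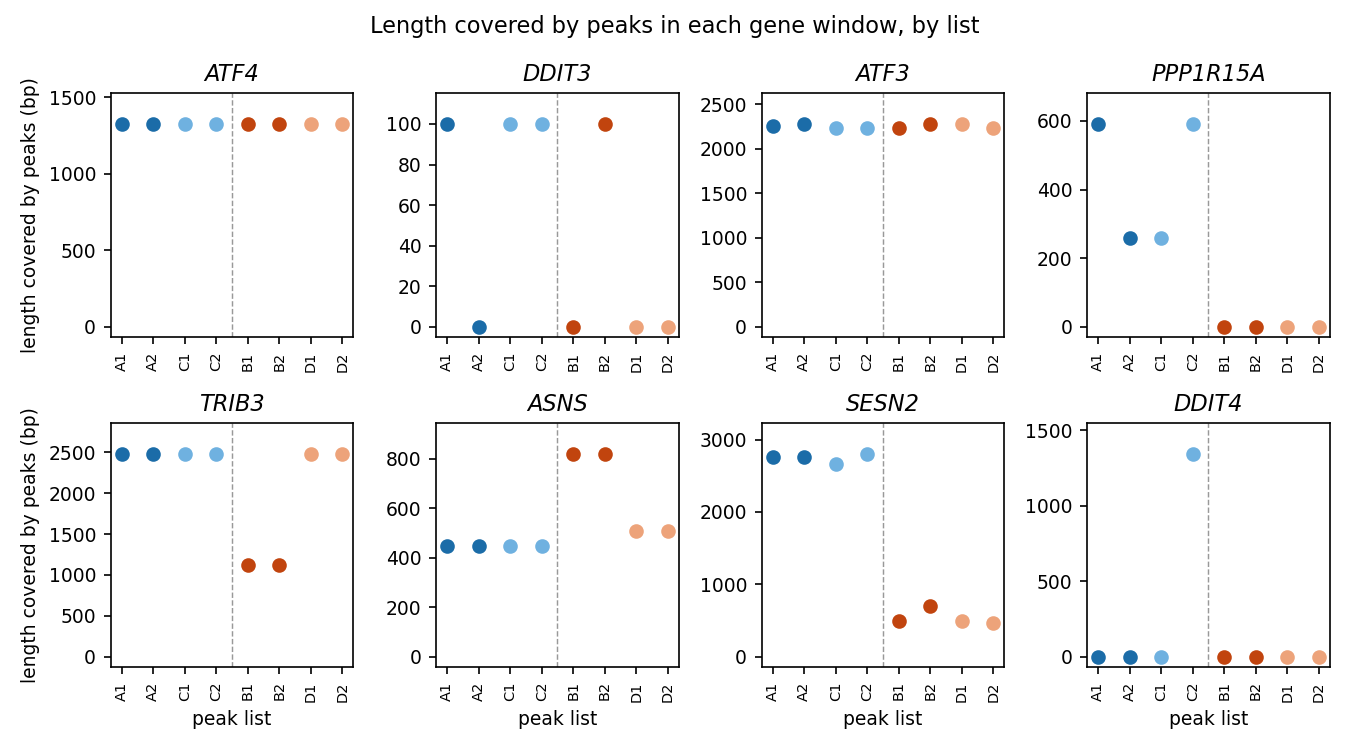
Each panel is a gene and each point the length in bp covered by its peaks in 1 list, with the A and C lists left of the dashed line and the B and D lists right of it. ATF4 is at 1327 bp in all 8 lists, SESN2 is at 2659 to 2807 bp in A and C and at 466 to 693 bp in B and D, and ASNS is at 447 bp in A and C, 821 bp in B and 508 bp in D.

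ASNS, asparagine synthetase, makes asparagine from aspartate and is a standard ATF4 target when amino acids are short. It had 5 regions on the minus strand of chromosome 7, numbered here from the 5′ end, and the lists divided them by the ends of the gene. Region 1 (97501031 to 97501477, 447 bp, from 377 bp inside the 5′ end) was scored 182.41 in A1, 44.89 in A2, 191.9 in C1 and 51.07 in C2. It was the only ASNS region of A and C and had no peak in B or D. The lists of B and D instead held the 3′ part. Region 4 (97482372 to 97482527, 156 bp) was scored 848.01 in B1, 964.53 in B2, 468.82 in D1 and 382.67 in D2. Region 5 (97481429 to 97481780, 352 bp), which reaches 1 bp past the 3′ end of the span, was scored 282.41 in B1, 131.48 in B2, 122.56 in D1 and 68.9 in D2. Neither had a peak in A or C. B1 and B2 also held region 2 (97488525 to 97488710, scores 606.8 and 995.57) and region 3 (97486002 to 97486128, scores 36.47 and 97.25), which D lacked. The covered length of ASNS was therefore lowest in A and C and highest in B, and it gives no sign that the peaks lie at opposite ends. In the RefSeq table CZ1P-ASNS overlaps ASNS, and it was not separated from it here.

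**Figure D3:**
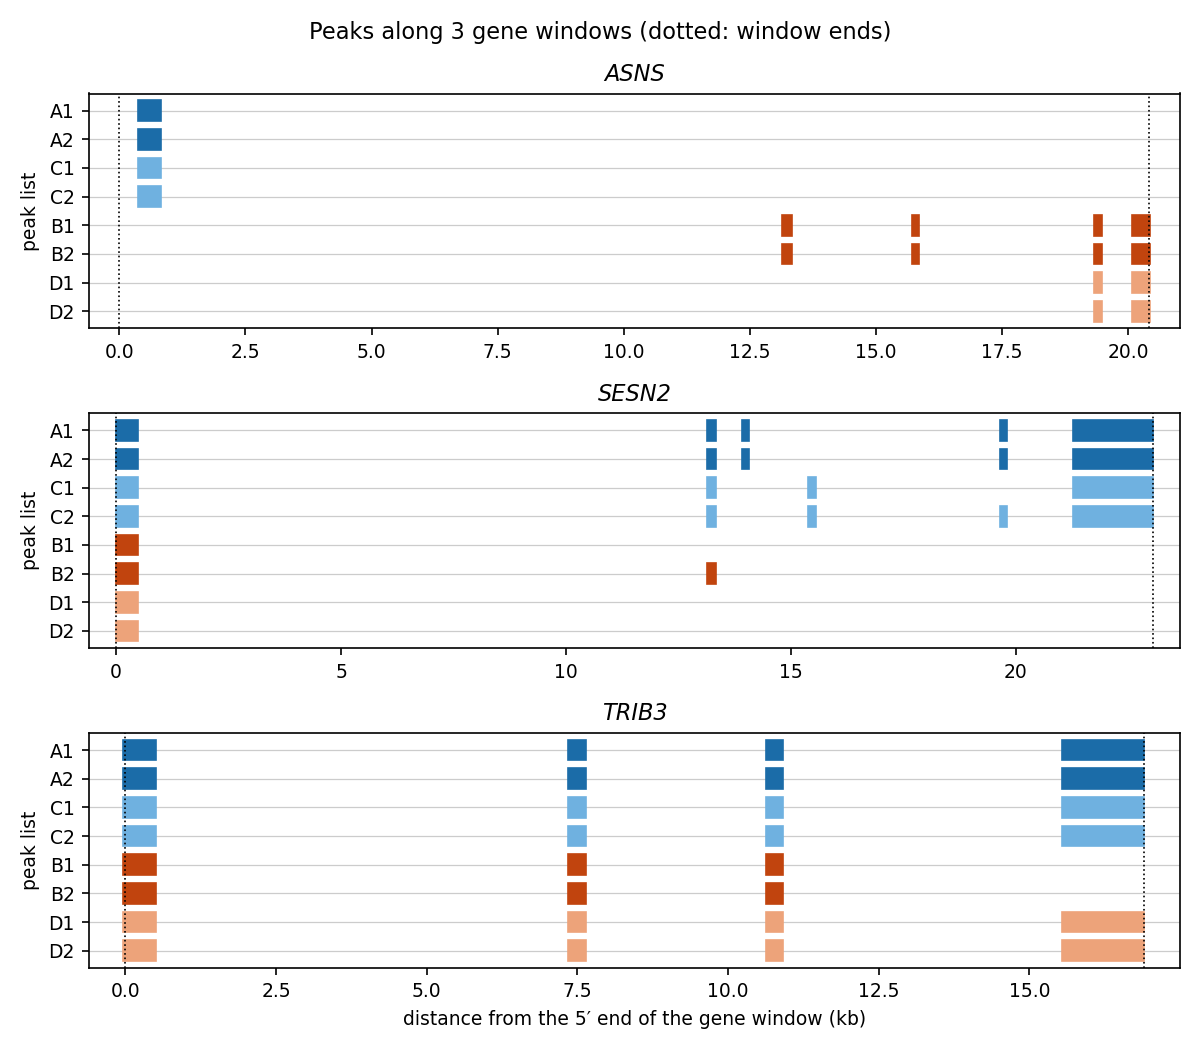
Peaks of ASNS, SESN2 and TRIB3 are drawn to scale as boxes by their distance in kb from the 5′ end of the gene's span, 1 row per list, with dotted lines at the ends of the span. ASNS has 1 box near the 5′ end in A and C and 2 to 4 boxes toward the 3′ end in B and D, SESN2 has no wide 3′ box in B and D, and TRIB3 has none in B.

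ATF4 acts on DNA at the C/EBP-ATF response element, often written TGATGNAAN, where N is any base. It was searched on both strands of the RefSeq promoters of the members (build GRCh38.p14, 250 bases before to 50 after each start, 14 starts for the 8 genes). Matches were found at 1 of the 2 starts of ASNS and 1 of the 2 of ATF3, and 3.61% of the 35116 promoters of the table hold a match. These starts are in another build than the peaks and were not compared with them. Which start gave the RNA of the lists is therefore not known. Both stretches are shown, since the members held no other match. The match is in capitals, 5′ to 3′ on the gene's strand. The match begins 68 bases before the start in ASNS (chr7:97872428-97872516, minus strand) and 191 bases before it in ATF3 (chr1:212565176-212565264, plus strand).
ASNS: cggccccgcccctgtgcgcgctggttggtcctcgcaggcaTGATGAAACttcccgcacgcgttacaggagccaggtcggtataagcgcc
ATF3: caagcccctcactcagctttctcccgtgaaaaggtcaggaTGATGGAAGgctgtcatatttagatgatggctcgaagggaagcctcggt
A match is a description of these letters. Binding to them was not measured here, and the lists of RNA peaks do not measure transcription.

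SESN2 encodes sestrin 2, which lowers mTORC1 activity when leucine is short and supports the antioxidant response. Its 6 regions lay on the plus strand of chromosome 1, and region 1 (28585963 to 28586448, 486 bp), at the 5′ end, was the only one in every list. That region was scored 780.78 and 729.14 in A1 and A2, 608.89 and 609.44 in C1 and C2, 77.65 and 131.19 in B1 and B2, and 20.95 and 122.79 in D1 and D2. Its peaks outscored 74.7% to 77.9% of peaks in A and C and 10.0% to 48.1% in B and D. Region 6, at the 3′ end (28607227 to 28609002, 1776 bp, to the last base of the span), was scored 52.14 in A1, 92.62 in A2, 25.11 in C1 and 73.07 in C2, and had no peak in B or D. Region 2 (28599092 to 28599304) had a peak in all lists of A and C, with scores of 379.57 to 716.08, and in B2, with 22.44. Region 3 (28599869 to 28600019) was in A1 and A2 alone, region 4 (28601336 to 28601526) in C1 and C2 alone, and region 5 (28605608 to 28605752) in A1, A2 and C2. Covered length was 2766 and 2756 bp in A1 and A2, 2659 and 2807 bp in C1 and C2, 486 and 693 bp in B1 and B2, and 486 and 466 bp in D1 and D2. The mean over the 4 lists of A and C was 2747 bp ± 62.7 (SD, n = 4), that over the 4 lists of B and D was 533 bp ± 107 (SD, n = 4), and the lists did not overlap.

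DDIT4 encodes REDD1, which also lowers mTORC1 activity. It had 1 peak in 1 list, C2, on chromosome 10 from 74034453 to 74035797 (plus strand, 1345 bp, up to the last base of the span), with a score of 22.47 that was above 11.4% of the peaks of the list. C1, its replicate, had none. SESN2 and DDIT4, which act on the same kinase complex, thus differed in how often a peak was called.

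The 3′ ends of the genes held a region within 50 bp in 7 of the 8 genes, DDIT3 being the exception. That end had a peak in 8 lists for ATF4 and for ATF3, in 6 for TRIB3, in 4 each for ASNS and SESN2, in 2 for PPP1R15A and in 1 for DDIT4. The lists were not the same for each gene. They were those of B and D for ASNS, of A and C for SESN2, and of A, C and D for TRIB3. The 5′ end held a region within 50 bp in 4 genes, in 8 lists each for TRIB3 and SESN2, in 4 for DDIT3 and in 2 for PPP1R15A. Regions of ATF3, TRIB3, SESN2 and DDIT4 ended at the last base of the span. Those of DDIT3, PPP1R15A and SESN2 began at its first base. Whether peak borders follow annotated gene ends was not tested, and no share over the genes of the series was computed. The counts near gene ends are therefore a description and give no measure of where PABPC1 binds. Exons were not assigned, since no annotation of hg19 was used here.

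The first division set the 4 lists of A and C beside the 4 of B and D. The record makes this a contrast of IP and input, and the list names make it a contrast of untreated cells and cells given AS. Covered length in B and D lay below A and C without overlap in 2 of the 23 member regions, region 1 of ASNS (447 bp against 0) and region 6 of SESN2 (1761 to 1776 bp against 0). It lay above in 2, regions 4 and 5 of ASNS. These are 8.7% of the member regions on each side. Over all 36802 regions the corresponding shares were 5.98% and 3.30%. Each of the 4 regions had p = 0.0286 in an exact 2-sided permutation test of 4 lists against 4, the smallest it can give, and an adjusted p of 0.308 (Benjamini-Hochberg over all regions). None of the 36802 regions passed an adjusted p of 0.05 in this exact permutation test, and 3417 had an unadjusted p below it. The test counts each list as a sample of its own, although replicates of a pair may share their source. As a share of each list's covered length, 10 of the 23 member regions lay above (43.5%) and 2 below (8.7%), beside 36.6% and 5.35% of all regions, since a region of constant width takes a larger share of a shorter list.

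By gene, PPP1R15A and SESN2 were covered less in every list of B and D, and ASNS more, while the other 5 genes overlapped. For ASNS the lists of A and C were all at 447 bp, both of B at 821 bp and both of D at 508 bp. The mean of B and D was 664.5 bp ± 181 (SD, n = 4), a spread that lies wholly between these 2 pairs. These gene values carry no test. Genes other than the members were not assigned, so no share over all genes can be set beside these counts. The shares given above are for regions and do not stand in for it. The length of the lists moved the same way as PPP1R15A and SESN2, with 21979 to 25111 peaks and 8.33 to 9.91 Mb in A and C and 19953 to 21160 peaks and 6.70 to 7.15 Mb in B and D. The members took 1000 to 1200 bp per covered Mb in A and C and 863 to 1060 bp in B and D. With every list limited to its 19953 best-scoring peaks, SESN2 still lay below in every list of B and D and ASNS above, while PPP1R15A and region 6 of SESN2 no longer separated the lists. With peaks of score 50 or more only, region 1 of ASNS, region 6 of SESN2 and PPP1R15A did not separate them either. Beyond this, the part of list length in these differences was not tested.

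The other division set the lists of A and B beside those of C and D. Read by the record, C and D received AS and A and B did not. Read by the list names, C and D are K512R while A and B are WT. No member region and no member gene separated the lists this way, with 0 of 23 regions on either side. Over all regions 0.223% lay below and 0.163% above in C and D without overlap. Across the series 142 regions had an exact permutation p under 0.05 for this division and none an adjusted one. Without D1, the covered length of ATF3 was 2234 bp in each list of C and D left and 2238 to 2279 bp in those of A and B. D1 itself was at 2279 bp, level with the highest lists of A and B. Leaving out any other list gave no such separation.

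Pairs were then compared by presence. A region is called lost where both lists of the starting pair have a peak and neither list of the other does, and gained in the reverse case. These comparisons share pairs with each other, and 2 lists against 2 cannot reach 0.05 in an exact test, so they are counts with no p. In B against A (by the record input against IP in untreated WT, by the names AS against none in WT) 5 of the 21 member regions with a peak in these lists were lost and 4 gained, that is 23.8% and 19.0%, beside 11.4% and 9.68% of all regions. Lost were region 4 of TRIB3, region 1 of ASNS and regions 3, 5 and 6 of SESN2. Gained were the 4 other regions of ASNS, so all gains fell in 1 gene and are not separate cases.

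In D against C (by the record input against IP in WT with AS, by the names AS against none in K512R) 5 of 20 regions were lost and 2 gained, 25.0% and 10.0%, beside 16.0% and 6.94% of all regions. The lost ones were the DDIT3 region, region 1 of ASNS and regions 2, 4 and 6 of SESN2. The gained ones were regions 4 and 5 of ASNS. Region 1 of ASNS and region 6 of SESN2 were lost, and regions 4 and 5 of ASNS gained, in this comparison as in that of B with A. These are the regions that separated A and C from B and D above, so their recurrence restates that division and is no separate result. Without C1, 8 regions were lost in D against C.

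In C against A (by the record AS against none in WT IP, by the names K512R against WT without treatment) 1 of 19 regions was lost and 1 gained, 5.26% each, beside 1.92% and 5.88% of all regions. Both lay in SESN2, where region 3 was lost and region 4 gained. Region 4 scored 18.36 in C1 and 15.81 in C2, above 7.19% and 4.17% of the peaks of these lists. Without A1 or without C1, 2 regions were gained, and without C2, 2 were lost.

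In D against B (by the record AS against none in WT input, by the names K512R against WT with AS) 2 of 15 regions were lost and 1 gained, 13.3% and 6.67%, beside 5.02% and 3.95% of all regions. Regions 2 and 3 of ASNS were lost and region 4 of TRIB3 was gained. Region 2 of ASNS had outscored 72.5% and 80.2% of the peaks of B1 and B2, and the TRIB3 region outscored 29.4% and 38.7% of those of D1 and D2. Without B1, 4 regions were lost.

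**Figure D4:**
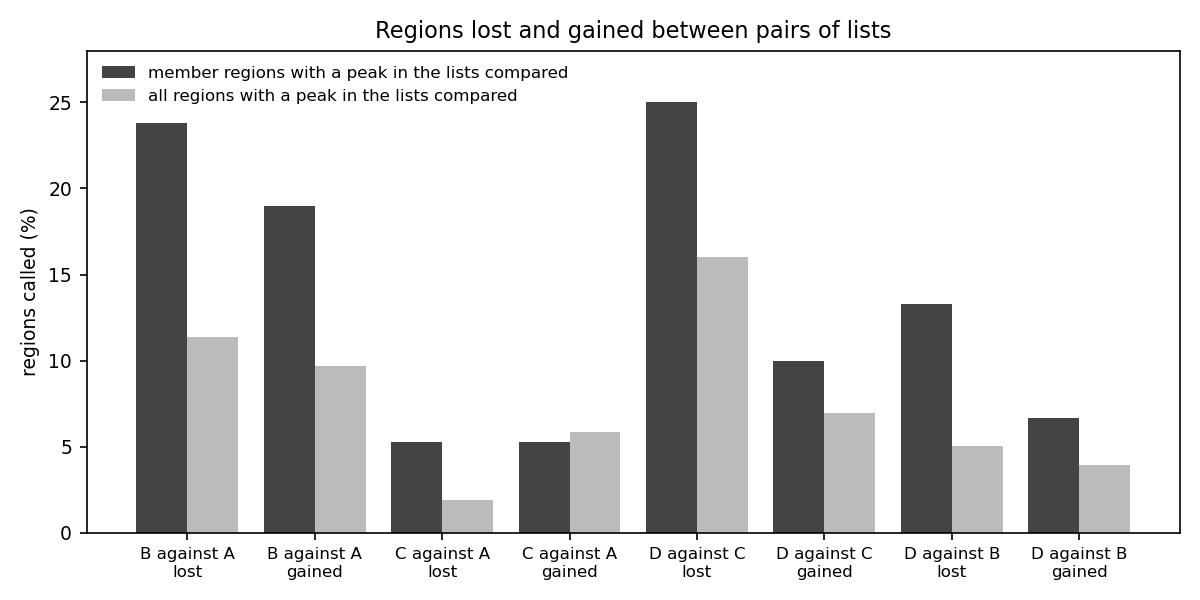
Bars give the percentage of regions lost or gained in each comparison of pairs, dark for the 15 to 21 member regions with a peak in the lists compared and light for all regions with one. Dark bars rest on 1 to 5 regions each, and they lie above the light ones except for gains in C against A.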

How the data were processed

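The submitters' processing notes name cutadapt 1.9.3, HISAT2 2.0.4 and build hg19. The peak names of the deposited lists begin with MACS; no source used here gives its version, control library, threshold or handling of strand. Ribosomal RNA was removed before library preparation, per the labels' protocols. Lists of 8 of the 16 samples were used, each with the authors' score per peak, whose scale is not stated. The score, from 13.02 to 3233.06, was used only to rank and filter peaks within a list.

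Starts were converted to count from 1. Peaks of all lists on 1 strand that shared 1 bp were joined into regions. Covered length was the summed peak width per list. Each region was tested by exact permutation over 70 orders of the lists, with Benjamini-Hochberg adjustment over all regions, and the code was tested on simulated data. Samples were grouped by their titles. All 8 members are named. Members, lists and the 50 bp limit for gene ends were chosen with earlier results of these data known. A wider list of pathway genes was not analysed here, because the RefSeq tables are for GRCh38.p14. The replicate numbers did not pair the lists. Alternatives covered score, list length, assignment, window, joining, presence rule, measure and left-out lists. The permutation test and its adjustment were written with numpy 2.4.6 under Python 3.11.15, and scipy 1.17.1 served to check the test on simulated data. Tables used pandas 2.3.3 and figures matplotlib 3.10.9.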

Additional observations from a re-analysis of the deposited data

Results flagged for a closer look

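On the strand opposite to DDIT3, a plus-strand region on chromosome 12 at 57908737 to 57910430 shared 60 bp with the 3′ end of its span, and it entered no comparison above. It had a peak in 4 of the 4 lists of A and C, scored 3100 in A1, A2 and C1 and 2555.87 in C2, and in 1 of the 4 lists of B and D, scored 41.7 in D1. By the record A and C are IP and B and D their inputs, and by the list names A and C are untreated and B and D had AS. The region is shown because more lists of A and C than of B and D held it, so that difference is no separate result. No share of regions with such a difference was computed over the series. MARS1 overlaps DDIT3 in the RefSeq table, and the region was not assigned to a gene.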

How the results depend on the processing

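Under the alternatives, 252 recomputed counts stayed within 1.5 times the reported value, 21 did not and 1 lost its test call. With scores of at least 50, 3 genes had a peak in every list (5 reported), 3 regions were lost in D against C (5) and 1 in D against B (2), and 1 region (the second of SESN2) and 1 gene (SESN2) lay below in B and D (2 each). With lists of equal length, no region was gained in C against A, that is 0 (1 reported), 3 were lost in D against C, and 1 region (the first of ASNS) and 1 gene (SESN2) lay below. With a peak in at least 1 list of a pair as presence, 2 were gained in C against A, 9 lost in D against C and 4 lost in D against B. As a share of covered length, 10 regions and 3 genes lay above in B and D, and 12 regions (4 reported) had an unadjusted exact permutation p under 0.05. Under the replicate block, permuting within replicate number, 0 regions did, because the smallest p it can give is 0.0556. The replicate numbers did not pair the lists, with correlations of 0.006 to 0.020 between pairs in the difference of replicates. Leaving out 1 list at a time gave 1 to 2 regions lost and 1 to 2 gained in C against A, 5 to 8 lost in D against C, 2 to 4 lost in D against B, and 0 to 1 genes below in C and D. Wider windows, midpoint assignment and joining at an overlap of 0.5 of the shorter peak changed none of these counts beyond 1.5 times. No direction of a gene that separated the lists turned.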

Other observations

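The nearest same-strand region outside a member's span lay within 25510 bp for ATF4, SESN2, TRIB3, PPP1R15A and DDIT3, and farther off for ATF3, ASNS and DDIT4. For ASNS the nearest regions lay 827199 bp past the 3′ end and 419108 bp before the 5′ end, each with a peak in all 8 lists. For DDIT4 they lay 39657 bp before and 416092 bp past the gene, again in all 8 lists, where DDIT4 itself had a peak in 1. For TRIB3 the nearest region downstream, 12853 bp past its end on chromosome 20 at 391056 to 391408, had a peak in the 4 lists of B and D and in none of A and C. Upstream of ATF4, a region 8070 bp before its span (chromosome 22, 39908237 to 39908499) had a peak in C1 and C2 alone. Over all regions, 3.30% had a covered length that lay above in every list of B and D. In C against A, 5.88% of all regions had a peak in both lists of C and neither of A. Both regions were picked from the nearest ones on either side of the 8 genes, so they are a description only. These regions were not assigned to genes.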
